A study of Mus musculus with 16 samples.

Results

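Undecanal, a fatty aldehyde odorant, was compared with vehicle, filtered air, in the 8 of 16 Clariom S arrays whose titles call the sorted cells GFP+. Members were chosen by title, which gave 4 undecanal and 4 vehicle arrays. All 16 arrays came from C57BL/6 mice of both sexes, aged 7 to 12 weeks, that carried S100a5-tauGFP, a reporter that marks expression of S100a5 with GFP fused to tau. Each array held RNA of cells sorted from the dissociated olfactory mucosa of 3 pooled mice, 24 mice in all. Each mouse spent 40 h alone in a chamber of clean air, at a flow of 3.1 L/min. From 26 h on, mice received undecanal or filtered air for 10 s every 20 min, both agents at the same time.

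The sample characteristics give the opposite GFP sign to the titles in all 16 samples. S100a5 was lower in the array titled GFP+ than in the array titled GFP- of the same pool in 8 of 8 pools, which goes with the characteristics. The arrays are therefore called titled GFP+ below, and nothing in the comparison of agents changes with that sign. If the characteristics are right, these arrays hold the cells without reporter signal. Because RNA was measured in bulk, fewer cells of a type and less RNA per cell cannot be told apart.

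Olfactory sensory neurons each express mainly 1 odorant receptor gene, and odorants that bind the receptor depolarise the neuron through cyclic AMP. Sustained firing changes the transcription of a set of genes in these neurons, among them S100a5, which encodes a calcium-binding protein, and adhesion molecules that help axons of like neurons to gather in glomeruli of the olfactory bulb. In the assay, receptors of neurons that respond to an odorant are sought among the sorted cells with the reporter. The comparison described here asks which transcripts differed with undecanal inside 1 sort fraction.

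The arrays carried the transcripts of mature olfactory neurons at high levels. The deposited values are on a log2 scale, so a difference of 1 is a 2-fold difference. Omp, the olfactory marker protein, lay between 18.80 and 18.85 in the vehicle arrays and between 18.74 and 18.86 in the undecanal arrays. A background level of 4.80 was taken from receptors of the vomeronasal organ and of bitter taste, and 17 of 18 mature neuron genes lay above it in at least 1 of the compared groups. Genes of other cells lay above that level too, 13 of 13 measured immune, 8 of 8 sustentacular cell and 7 of 8 microvillar cell genes. Of the genes of horizontal basal cells 2 of 8 did. Most probe sets lay above it, 13937 of all 22206, so these counts alone say little about which cells were present. Arrays within an agent correlated with r from 0.990 to 0.993, and arrays of different agents with r from 0.990 to 0.994.

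Pcdh10 was the 1 transcript of 22206 tested whose level differed after adjustment, and it was higher with undecanal. Pcdh10 encodes a delta-protocadherin, a homophilic cell adhesion molecule with extracellular cadherin repeats. Its promoter is shown because Pcdh10 carries the result of the comparison. The window holds the 250 bases before the RefSeq start, on the plus strand of build GRCm38.p6 at chr3:45378148-45378397, with each match to TGACG in capitals. TGACG is the core of the cyclic AMP response element, which factors of the CREB family bind.
Pcdh10 promoter: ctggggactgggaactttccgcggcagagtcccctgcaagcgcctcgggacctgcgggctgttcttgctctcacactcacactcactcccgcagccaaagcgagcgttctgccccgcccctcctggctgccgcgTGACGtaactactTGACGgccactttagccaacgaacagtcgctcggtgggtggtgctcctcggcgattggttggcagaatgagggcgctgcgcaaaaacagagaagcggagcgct
The 2 matches begin at -116 and -103 from the start and lie on the gene's own strand. Searched on both strands, TGACG occurs in 17.8% of the 32851 RefSeq windows of this length, and at 2 or more places in 3.9%. The complete palindrome TGACGTCA, which contains TGACG, is not in the Pcdh10 window and occurs in 1.55% of all windows. The windows of S100a5, Pcp4l1, Lrrc3b and Kirrel2 hold no TGACG.

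In vehicle arrays Pcdh10 measured 7.36, 7.33, 7.68 and 6.80 for pools 1 to 4. In undecanal arrays it measured 9.01, 8.82, 9.24 and 9.75. The lowest undecanal array lay above the highest vehicle array, and the groups did not overlap. The mean rose from 7.29 ± 0.363 (SD, n = 4) to 9.21 ± 0.403 (SD, n = 4), a difference of 1.91 on the log2 scale, or 3.76-fold (SE 0.218, 95% interval 1.45 to 2.37, limma adjusted p = 2.05e-03). Over all probe sets 0.0045% passed, which is this 1. An exact two-sided permutation test over the 8 arrays gave p = 0.0286 for Pcdh10, the smallest that 70 splits of 4 against 4 allow. Groups without overlap always give this value, here 415 probe sets or 1.87% of all. The test therefore adds nothing to the lack of overlap. The call depended on the fit. With the 8 compared arrays alone the difference was the same but the limma adjusted p was 0.13, and it was 0.11 without both pools numbered 1, 0.0587 without both numbered 3 and 0.0649 without both numbered 4, where the difference was 1.57.

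**Figure D1:**
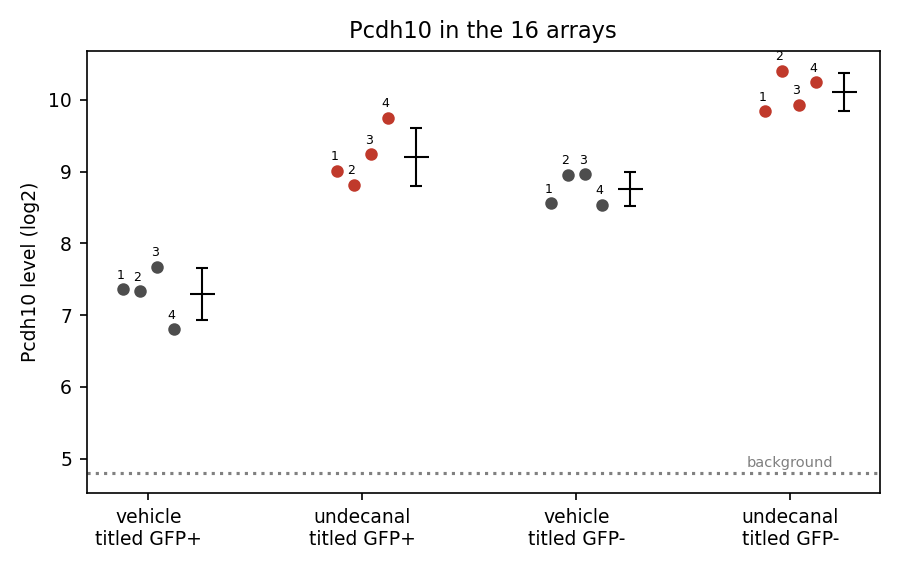
Level of Pcdh10 (log2, vertical axis) in the 16 arrays by agent and titled fraction. Points are arrays labelled by pool number, bars are the mean ± SD of 4 arrays, and the dotted line is the background level of 4.80; the undecanal arrays titled GFP+ lie between 8.82 and 9.75, above the vehicle arrays at 6.80 to 7.68.

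The same gene was higher with undecanal in the other fraction of the same mice. In arrays titled GFP- Pcdh10 averaged 8.76 ± 0.239 (SD, n = 4) with vehicle and 10.11 ± 0.263 (SD, n = 4) with undecanal, again without overlap, and the difference of 1.35 did not pass over all probe sets. Agents did not overlap in 2.2% of all probe sets there. From low to high the group means ran vehicle titled GFP+, vehicle titled GFP-, undecanal titled GFP+ and undecanal titled GFP-. The middle pair overlapped, since the vehicle arrays titled GFP- reached 8.97 and the undecanal arrays titled GFP+ began at 8.82. The interaction, which subtracts the undecanal effect in the other fraction, was 0.56 (SE 0.308) with a limma adjusted p of 1, so a difference between fractions was not shown. For the interaction 0 probe sets passed in limma, and 584, or 2.63%, had an unadjusted p under 0.05.

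Pcdh10 was also 1 of 13 probe sets, 0.0585% of all, whose agents did not overlap in the same direction in both fractions. The fractions come from the same mice. The differences of the other 12 in arrays titled GFP+ were smaller than that of Pcdh10. With Pcdh10, 8 of the 13 were higher and 5 lower. Among the higher ones were Sulf2, an extracellular sulfatase that trims heparan sulfate, at 0.40, and Lrp1, an endocytic lipoprotein receptor, at 0.40. Tinagl1, a secreted matrix protein, was at 0.38 and Spag1, an assembly factor of ciliary dynein, at 0.37. Among the lower ones were Dap at -0.72, Iqce, a protein of primary cilia that acts in Hedgehog signalling, at -0.36, and Cct8, a subunit of the TRiC chaperonin, at -0.32. None of these 7 passed in limma, each with an adjusted p of 0.999, and they were picked after their values were seen.

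The other genes known to rise with activity in these neurons had positive differences but did not pass. S100a5 measured 15.62, 15.66, 15.54 and 15.84 in vehicle pools 1 to 4 and 15.96, 15.62, 15.74 and 15.75 in undecanal pools 1 to 4, a difference of 0.10 (SE 0.168). Lrrc3b, a leucine-rich repeat membrane protein, measured 11.50, 11.29, 10.78 and 12.75 with vehicle and 11.93, 12.37, 12.57 and 12.29 with undecanal, a difference of 0.71 (SE 0.362). Kirrel2, an immunoglobulin adhesion molecule of olfactory axons, measured 13.28, 13.13, 12.51 and 14.57 with vehicle and 13.68, 13.87, 13.88 and 13.62 with undecanal, a difference of 0.39 (SE 0.348). Vehicle pool 4 was above every undecanal array for Kirrel2 and Lrrc3b, and the other 3 vehicle pools were below every undecanal array. Pcp4l1 differed by 0.23 (SE 0.238) with overlap.

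Averaged over these 4 genes, vehicle pools 1 to 3 lay at 13.51, 13.51 and 13.10, the undecanal pools between 13.91 and 14.06, and vehicle pool 4 at 14.37. Vehicle pool 4 was thus the highest array for the 4 genes together and the lowest for Pcdh10. Without vehicle pool 4 the difference was 1.10 for Lrrc3b (SE 0.249, limma adjusted p = 1) and 0.79 for Kirrel2 (SE 0.21, limma adjusted p = 1), and 0.37 for Pcp4l1 and 0.16 for S100a5. Vehicle pool 3 was the lowest vehicle array of all 4 genes, and without it the differences were smaller, 0.44 for Lrrc3b, 0.10 for Kirrel2, 0.13 for Pcp4l1 and 0.06 for S100a5. Of the 5 activity-raised genes, Pcdh10 included, 5 were higher with a median of 0.39, against a median of 0.01 over all probe sets. This list was known from earlier results to hold Pcdh10, so its median is no independent evidence.

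The other delta-protocadherins did not pass. Delta-protocadherins share cadherin repeats and differ in their cytoplasmic tails, and neurons combine them in cell-specific sets. Of the 10 measured members 8 lay above background, 1 passed, and the median difference was 0.03. Pcdh17, Pcdh19, Pcdh8 and Pcdh18 belong to the same delta-2 group as Pcdh10. Pcdh17 measured 10.25, 10.53, 11.28 and 10.66 with vehicle and 10.12, 10.47, 9.94 and 10.59 with undecanal, a difference of -0.40 (SE 0.271), which was -0.20 without vehicle pool 3. Pcdh19 differed by 0.03 (SE 0.159) at a level near that of Pcdh17, and its 4 vehicle arrays spanned 10.28 to 10.39. Pcdh8 differed by -0.16 (SE 0.246), with undecanal pool 1 at 9.40 and the other undecanal arrays from 10.09 to 10.23. Pcdh18 lay below background in both groups. Of the delta-1 group, Pcdh1 differed by -0.04, Pcdh7 by 0.04, Pcdh9 by -0.13 and Pcdh11x by 0.20, each with overlapping groups. The signs of Pcdh1, Pcdh7, Pcdh8, Pcdh9, Pcdh18 and Pcdh19 turned when single pools or numbers were left out. Pcdh20 went from 2.95 to 3.31 without overlap, but both means were below background.

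**Figure D2:**
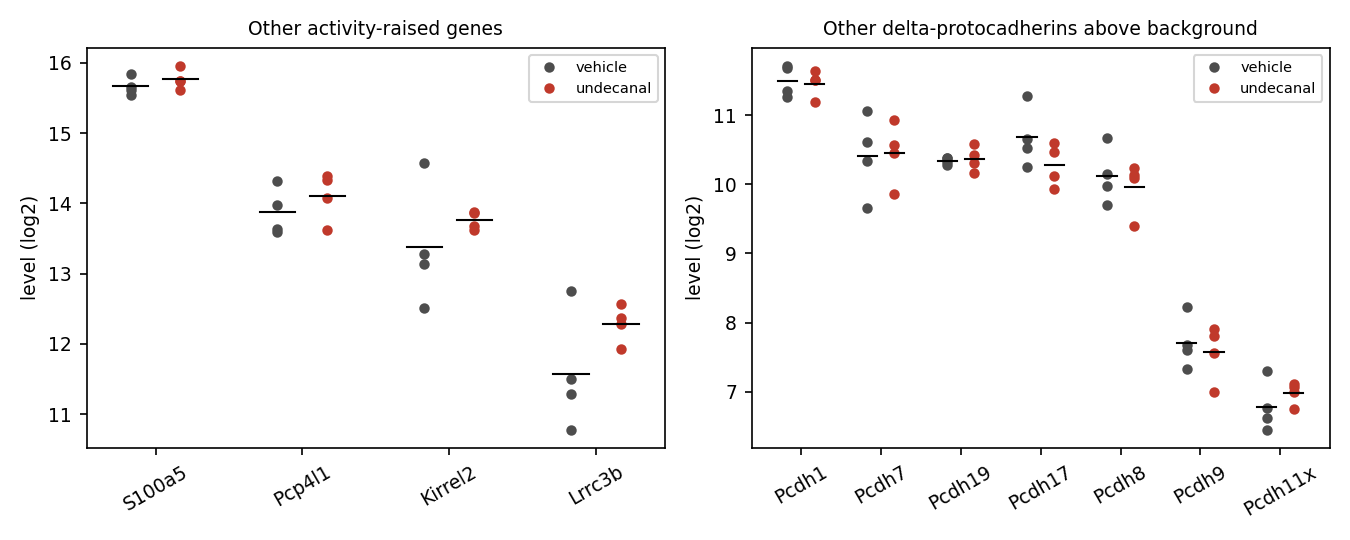
Levels (log2, vertical axes) of the other 4 activity-raised genes, left, and of the other 7 delta-protocadherins above background, right, in arrays titled GFP+. Points are arrays, 4 per agent, and lines are means; vehicle pool 4 is the highest vehicle point for Kirrel2 at 14.57 and for Lrrc3b at 12.75.

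Genes whose arrays deviated most like those of Pcdh10 were also looked up. Over the 16 arrays, deviations from the group means correlated best with those of Pcdh10 for Olfr1362 (r = 0.892), Olfr132 (r = 0.887), Tlcd3a (r = 0.886), Erap1, an aminopeptidase that trims antigenic peptides (r = 0.875), and Bcl2l11, a pro-apoptotic BCL2 family member (r = 0.869). Their own differences between agents ran from -0.73 for Bcl2l11 to 0.15 for Erap1, and none passed. Deviations from the group means leave out any difference between agents, so the correlations do not bear on it. The genes were picked for the highest r, and both fractions of a pool share mice. Shared regulation with Pcdh10 was not tested.

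Genes that act beside Pcdh10 did not pass either. Delta-2 protocadherins bind the WAVE complex, which drives actin branching, and 9 of its 10 listed genes were measured with a median of 0.01. The smallest p among them belonged to Wasf3 at 0.31, below background in both groups, and Wasf2 at -0.20. Of 20 measured genes of axon sorting and guidance, 11 were higher and 9 lower with a median of 0.01, which turned to -0.0029 with quantile normalization and -0.0034 when centred on mature neuron genes. Of the 20, 1 had an unadjusted p under 0.05, as chance alone gives, against 2.72% of all probe sets. That gene was Sema7a, a membrane-anchored semaphorin that acts between olfactory axons and mitral cell dendrites. Sema7a measured 13.20, 13.08, 13.17 and 13.29 with vehicle and 13.66, 13.25, 13.64 and 13.90 with undecanal, a difference of 0.43 (SE 0.142, limma adjusted p = 0.999). Undecanal pool 2 was the 1 undecanal array inside the vehicle range. Plxna3, a semaphorin coreceptor, differed by -0.34 (SE 0.213), and by -0.18 without undecanal pool 4.

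Beyond Pcdh10 the comparison held few large differences. Among all probe sets, the 5th and 95th percentiles of the difference were -0.31 and 0.34, and 12 differed by more than 1 in either direction. The largest difference, 2.54 (SE 1.595), exceeded that of Pcdh10. It belonged to a probe set without a gene name, whose groups overlapped. An unadjusted p under 0.05 was reached by 603 probe sets, or 2.72%, of which 357 were higher (1.61%) and 246 lower (1.11%). Chance alone gives 1110.3 of 22206, so the count of 603 was below that number. The agents did not overlap in 415 probe sets (1.87%), with undecanal higher in 246 (1.11%) and lower in 169 (0.761%). In simulated arrays with 200 changed probe sets, 66.0% of differences of 1 and 97.2% of differences of 2 were called. With that many changed, the adjustment is milder than in these data, where 1 passed. The simulated shares therefore do not carry over, and a smaller share may be called here. Many differences of 1 or less could be missed with 4 pools per agent.

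**Figure D3:**
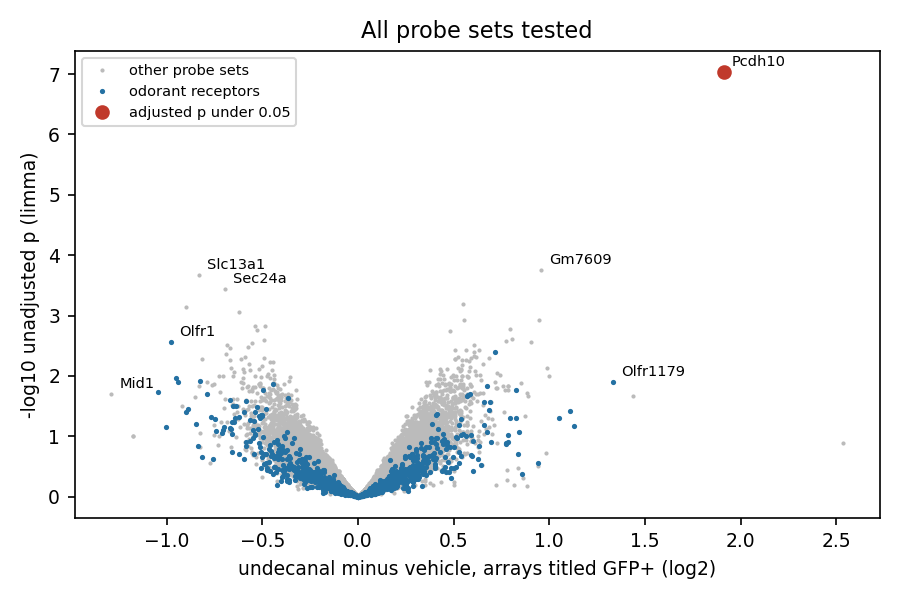
Difference between agents in arrays titled GFP+ (log2, horizontal axis) against -log10 of the unadjusted limma p (vertical axis) for the 22206 probe sets, with odorant receptors in blue. Pcdh10, in red at a difference of 1.91, is the 1 probe set that passed after adjustment.

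Among the other genes with the smallest unadjusted p none passed (limma adjusted p = 0.999 for each). Gm7609, a predicted gene, measured 5.20, 5.33, 4.93 and 4.95 with vehicle and 6.05, 6.54, 5.98 and 5.66 with undecanal, a difference of 0.96 (SE 0.201). The groups did not overlap. In arrays titled GFP- its difference was -0.0035, but both means there, 4.352 and 4.348, lay below background. Its interaction did not pass in limma. Clec4a1, a C-type lectin receptor of myeloid cells, differed by 0.95, Klrk1, the NKG2D receptor of natural killer and T cells, by 0.80, and Lmbrd2 by 0.80. Smaller positive differences were those of the complement inhibitor Cd59b (0.62), Dph5, which acts in diphthamide synthesis (0.60), the cyclophilin gene Ppic (0.56), the DNA repair gene Rad50 (0.51) and Tyw3, which modifies transfer RNA (0.48).

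On the lower side Slc13a1, a sodium-sulfate cotransporter, measured 5.89, 6.23, 5.79 and 6.09 with vehicle and 5.51, 5.19, 5.02 and 4.95 with undecanal, a difference of -0.83 (SE 0.178). Sec24a, a cargo adaptor of COPII vesicles, measured 7.84, 8.30, 7.95 and 7.49 with vehicle and 7.09, 7.19, 7.20 and 7.33 with undecanal, a difference of -0.70 (SE 0.157). Neither overlapped between agents. Themis2, a signalling adaptor of B cells and macrophages, differed by -0.90 with overlap. Mdfic (-0.69), Gm10264 (-0.69), the chromatin reader Brwd1 (-0.67), Dcpp3, a secreted glandular protein (-0.59), Ubxn11 (-0.57), Mideas, a scaffold of a histone deacetylase complex (-0.55), and Zfp267 (-0.53) followed. In arrays titled GFP- Brwd1 had a difference of 0.48 in the other direction, and its interaction did not pass (limma adjusted p = 1).

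Of the 1091 odorant receptors none passed in limma, and 991 lay above background in at least 1 group compared. An unadjusted p under 0.05 was reached by 39 receptors, 3.57%, against 2.72% of all probe sets. Chance alone gives 54.55 of 1091, so this count too was below that number. Of the 39 receptors, 13 were higher and 26 lower with undecanal. With median centring the split was 15 and 25, with quantile normalization 11 and 26, and 14 and 29 when arrays were centred on genes of mature neurons. The median receptor difference was 0.0027 and turned to -0.0077 with quantile normalization and -0.0074 with mature neuron centring. Probe sets of close paralogs can share signal, so the value of a single receptor is uncertain.

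Olfr1 measured 10.56, 9.81, 9.43 and 10.57 with vehicle and 9.32, 9.23, 8.57 and 9.33 with undecanal, a difference of -0.98 (SE 0.28). Olfr1097, among the more abundant receptors at a vehicle mean of 12.96 ± 0.412 (SD, n = 4), had a mean of 12.01 ± 0.614 (SD, n = 4) with undecanal, a difference of -0.95. For Olfr1, Olfr1097 and Olfr775 (-0.83) every undecanal array lay below every vehicle array. Among all 1091 receptors 9 were lower and 4 higher without overlap, against 0.761% and 1.11% of all probe sets. Such a lack of overlap in receptors picked by p is therefore no sign of a receptor response. Olfr1014 (-0.94), Olfr979 (-0.50) and Olfr538 (-0.44) overlapped between agents.

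Olfr1179 measured 5.24, 5.85, 5.78 and 6.30 with vehicle and 7.79, 6.78, 6.82 and 7.12 with undecanal, a difference of 1.33 (SE 0.479). Its groups did not overlap. In arrays titled GFP- its difference was -0.33 (SE 0.479), and its interaction did not pass in limma, so a difference between fractions was not shown. The other 5 receptors with the smallest p on the higher side were Olfr196 (0.82), Olfr372 (0.72), Olfr206 (0.67), Olfr1037 (0.58) and Olfr1364 (0.575), all with overlap. All 12 of these receptors had a limma adjusted p of 0.999. The most abundant receptors differed little. Olfr55, the highest at 15.43 with vehicle, differed by 0.07 (SE 0.253), and the 10 highest differed by -0.45 to 0.11.

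Receptor differences were set beside those in arrays titled GFP-, which are other arrays of the same mice. The sign was the same in 607 of 1091 receptors, or 55.6%, against 55.1% of all probe sets. Across receptors the differences correlated with r = 0.206, and receptors of 1 mouse pool are not independent. Olfr1220 was higher in both fractions, by 1.05 each, but its groups overlapped, with vehicle arrays titled GFP+ at 8.35, 10.51, 10.13 and 10.03 and undecanal arrays at 11.77, 10.90, 10.72 and 9.84. Olfr1034 differed by 1.13 in arrays titled GFP+ and 0.05 in those titled GFP-. Vehicle pool 1 of Olfr1034 stood at 7.03, and the other 7 arrays titled GFP+ lay between 9.96 and 11.25.

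**Figure D4:**
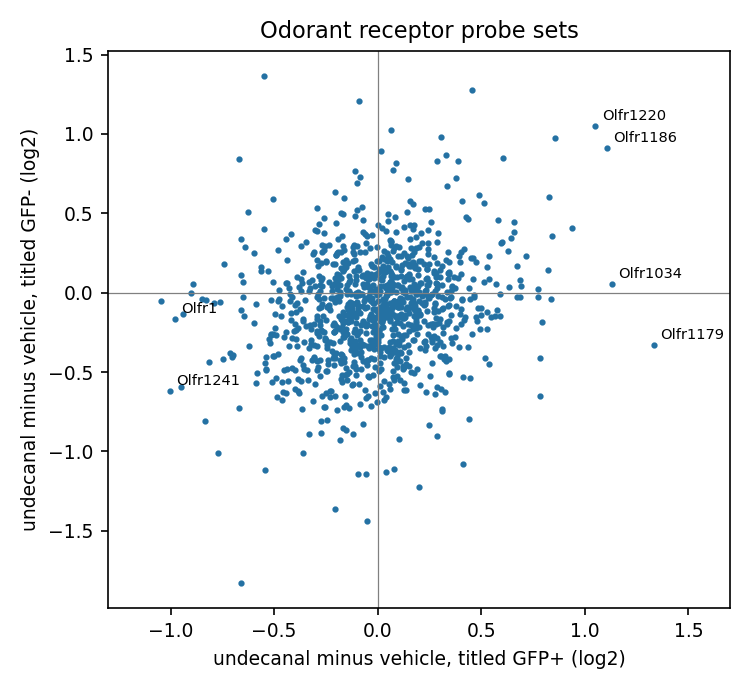
Undecanal minus vehicle (log2) for the 1091 odorant receptor probe sets in arrays titled GFP+ (horizontal axis) and in arrays titled GFP- (vertical axis). Each point is a probe set; Olfr1179 at 1.33 and -0.33 and Olfr1220 at 1.05 and 1.05 lie at the right edge, and no receptor passed in arrays titled GFP+.

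No receptor with a published ligand passed. Of the 10 measured, 5 were higher and 5 lower with a median of 0.02, and 0 had an unadjusted limma p under 0.05. Olfr2, the I7 receptor for octanal, another aliphatic aldehyde, measured 6.08, 5.87, 6.26 and 5.24 with vehicle and 6.04, 5.76, 5.92 and 5.97 with undecanal, a difference of 0.06 (SE 0.286). Olfr160, the M72 receptor for acetophenone, differed by 0.36 and Olfr16, the MOR23 receptor for lyral, by 0.26. The 15 trace amine-associated receptors, a separate family of amine detectors, ran from -0.40 to 0.47 with a median of 0.24. Of these 9 were higher and 6 lower, and 0 had an unadjusted limma p under 0.05. The smallest p among them belonged to Taar7e (-0.40) and to Taar1 (-0.35), which was below background.

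Genes of the neuron's signalling machinery differed little. The 15 measured genes of olfactory transduction ran from -0.13 to 0.14, with Slc12a2, a chloride importer, and Pde1c, a ciliary phosphodiesterase, both at 0.14. The mature neuron genes had a median of -0.01, which turned to 0.02 with quantile normalization. Among them Cidea was at 0.41 (SE 0.235) and the glutamate transporter Slc17a6 at 0.21. The genes of receptor choice and trafficking had a median of -0.03, with the transcription factor Ebf4 at -0.25 and the receptor chaperone Rtp2 at -0.19. Immediate early genes, which are transcribed within minutes of stimulation, were lower in 16 of 23 cases with a median of -0.07, and 0 had an unadjusted limma p under 0.05. Egr3 was at -0.48 (SE 0.269) and Atf3 at 0.30 (SE 0.198), and Atf3 was at 0.15 without undecanal pool 1. The 22 measured genes of aldehyde and alcohol metabolism had a median of -0.06, with Adh1 at -0.54 and Aldh1a2, below background, at 0.31. Vehicle pool 4 of Adh1 stood at 7.51 and the other vehicle arrays between 5.82 and 6.61, and the difference was -0.21 without it.

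Among neurons still maturing, 10 of 12 genes were lower with undecanal and the median was -0.11, but 0 had an unadjusted limma p under 0.05. The mean level of that list overlapped between agents, from 11.70 to 11.87 in vehicle arrays and from 11.40 to 11.95 in undecanal arrays. Gng8, a G-protein subunit of immature neurons, was at -0.58 (SE 0.326) and Marcksl1 at 0.37. The difference of Gng8 was -0.93 without undecanal pool 2 and -0.34 without undecanal pool 4, and that of Marcksl1 was 0.19 without vehicle pool 3. Kit, a receptor kinase of neuronal progenitors, measured 7.17, 7.28, 7.22 and 7.35 with vehicle and 6.57, 7.18, 6.38 and 6.70 with undecanal, a difference of -0.55 (SE 0.203, limma adjusted p = 0.999). Undecanal pool 2 was the 1 undecanal array of Kit that reached the vehicle range, and the cell cycle gene Top2a was at 0.34. For Top2a vehicle pool 4 stood at 6.14 and the other vehicle arrays between 6.91 and 7.38, and the difference was 0.11 without it.

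Lists of other cell types held a few members with an unadjusted p under 0.05, and none passed in limma. Of 8 microvillar cell genes 2 had such a p, against 2.72% of all probe sets. They were Ascl3, a factor of ionocyte-like cells, at 0.87, and Avil, an actin-severing protein of tuft-like cells, at -0.50. Ascl3 left that count with quantile normalization, and its difference was 0.54 without vehicle pool 3 and 0.49 without undecanal pool 2. Acta2, the smooth muscle actin, was at -0.66, with both means below background. Ensheathing glia had a median of -0.36 over 6 measured genes, 3 of them above background, and Npy (-0.49) and Frzb (-0.53) were below it in both groups. Sustentacular cells had a median of 0.01, with Cyp1a2 at -0.42 and Krt8 at 0.34. Of the 13 measured immune cell genes 6 were higher and 7 lower, with a median of -0.01 and Csf1r at 0.33. The difference of Cyp1a2 was -0.14 without vehicle pool 4 and -0.74 without vehicle pool 2. For Csf1r undecanal pool 1 stood at 8.69 and the other undecanal arrays between 7.12 and 7.61, and without that pool the difference was 0.0113. Dmbt1, a glandular mucin-like protein, was at -0.58, with vehicle pool 1 at 6.79 and the other vehicle arrays from 4.96 to 5.24, and its difference was -0.14 without that pool.

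Several transcripts that differed most between arrays of 1 agent went with the pool number rather than with the agent. These were picked after their values were seen. Cd79a, a chain of the B cell receptor complex, measured 9.88, 10.18, 7.23 and 5.99 in vehicle pools 1 to 4 and 10.55, 9.47, 5.78 and 6.21 in undecanal pools 1 to 4. Its partner Cd79b measured 9.32, 8.59, 6.13 and 6.24 with vehicle and 9.77, 8.41, 6.27 and 5.96 with undecanal. Pools 1 and 2 of both agents were high for these genes, and pools 3 and 4 were low.

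The mean over 6 B cell genes (Cd79a, Cd79b, Cd72, Vpreb3, Tnfrsf13c and Bank1) ran from 8.84 to 9.90 in pools 1 and 2 and from 6.06 to 6.39 in pools 3 and 4. Eif2s3y, a gene of the Y chromosome, measured 11.23, 11.20, 11.06 and 8.18 with vehicle and 10.98, 11.02, 10.45 and 8.88 with undecanal. Uty, also on the Y chromosome, was lowest in pool 4 of both agents too, at 7.03 and 7.71, against 9.28 to 10.23 in the other 6 arrays. The glandular gene Bpifb9b spread most of all within the agents, with vehicle arrays at 12.78, 6.62, 6.36 and 5.03 and undecanal arrays at 11.30, 10.64, 5.51 and 6.62.

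**Figure D5:**
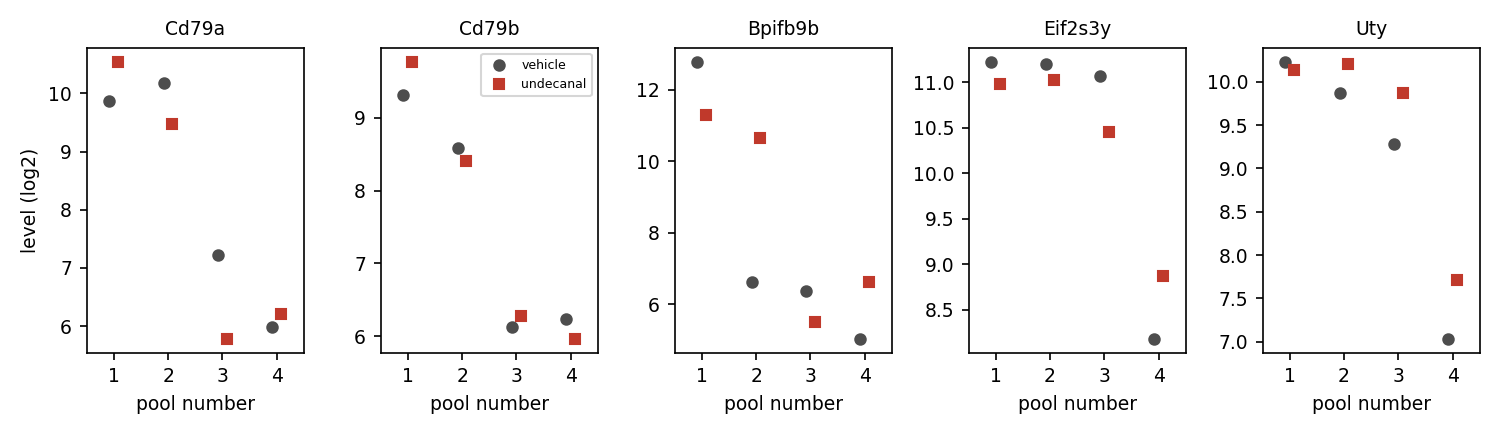
Levels (log2, vertical axes, each panel on its own scale) of 5 genes by pool number (horizontal axis) in arrays titled GFP+. Circles are vehicle and squares undecanal; Cd79a and Cd79b are high in pools 1 and 2 of both agents, and Eif2s3y and Uty are lowest in pool 4 of both.

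The labels do not say what a pool number marks, and its part in the results was not tested beyond the fit with the number as a block. The lowest vehicle array and the highest undecanal array of Pcdh10 both came from pools numbered 4. Without both of these pools its difference was 1.57 (limma adjusted p = 0.0649). The 12 probe sets with a difference over 1 included 6 receptors and 4 probe sets without a gene name, a pair of which held identical values, and in 2 of the 12 the agents did not overlap, Pcdh10 and Olfr1179. The remaining named gene was Mid1, a ubiquitin ligase gene that crosses the pseudoautosomal boundary in this strain, with vehicle arrays at 9.70, 9.82, 8.75 and 8.31 and undecanal arrays at 8.83, 7.29, 7.27 and 8.03. Mid1 differed by -1.29 (SE 0.504, limma adjusted p = 0.999), and its groups overlapped.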

How the data were processed

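The submitters' processing notes name Affymetrix Expression Console as the authors' tool for the 1 deposited table. Its log2 scale was inferred from the deposited range, 1.44 to 19.7. How probes were summarised and centred is not given in the sources used here. Of 28846 rows, 6640 control rows were left out. Platform annotation gave 19572 of the 22206 probe sets 1 gene, 0 several and 2634 none, and all 19572 matched the RefSeq gene table of GRCm38.p6. The probe set with the highest mean stood for each of 55 genes with several. The background level is the 95th percentile over the group means of 358 vomeronasal and bitter receptor probe sets. Depth is not defined for arrays; their number limits the precision.

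All 16 arrays entered a single limma 3.58.1 fit (lmFit, eBayes; R 4.3.3) with 4 group means, with Benjamini-Hochberg adjustment over all probe sets and a threshold of 0.05. It was tested on 20 simulated data sets with 200 changed probe sets, of whose calls 5.01% were false. The simulated noise was independent for each array and probe set, without any effect of pool. That share therefore does not carry over to these arrays, whose fractions share mice. The limma p-values rest on the spread between arrays of a group, pooled over the 4 groups and moderated over all probe sets. Both fractions of a pool entered as separate arrays. Samples and gene lists were chosen with earlier results of these data known. The rule for named genes took every passing probe set, the 10 smallest p per direction outside the receptors and 6 per direction among receptors (with at least 1 group mean above background), all activity-raised genes and delta-protocadherins, and the 2 smallest p of each other list, of which the text names part. Lists are described by counts and medians.

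Deviations from group means correlated between same-numbered pools of different agents with r of 0.291, 0.0985, 0.0856 and 0.025, so the number was not taken as a pairing. Fractions of 1 pool share mice, and gave r from 0.0502 to 0.271. Alternatives covered the arrays fitted, blocks, scaling, array weights, the prior variance, left-out pools and a filter on dim probe sets. Promoter windows came from RefSeq (GRCm38.p6); proteins were not used here.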

Additional observations from a re-analysis of the deposited data

Results flagged for a closer look

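Values of 7 named genes stood apart from the other 3 arrays of their group, among 156 groups of 4 checked over 78 genes; chance alone gives about 1 in 20. In undecanal arrays Olfr1 was 8.57 in pool 3 against 9.23 to 9.33, Mdfic 4.24 in pool 4 against 4.65 to 4.69, Pcdh8 9.40 in pool 1 against 10.09 to 10.23, and Uty 7.71 in pool 4 against 9.88 to 10.20. In vehicle arrays Dcpp3 was 5.52 in pool 4 against 4.64 or less, Olfr372 5.56 in pool 3 against 4.75 to 4.88, and Dmbt1 6.79 in pool 1 against 4.96 to 5.24. The causes were not tested.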

How the results depend on the processing

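The Pcdh10 difference stayed positive in all 23 alternatives, from 1.57 to 2.05 with pools left out and from 1.90 to 2.01 otherwise, with limma adjusted p from 7.88e-04 to 0.13. Its call was lost at an unchanged 1.91 with the 8 compared arrays alone (adjusted p = 0.13) and with each gene's own residual variance (0.0547), and without both pools numbered 1 (2.00), 3 (2.03) or 4 (1.57). Leaving out any single pool kept the call. The number of probe sets passing was 0 with the 8 arrays alone and 0 to 1 with pools left out. The number with an unadjusted p under 0.05 was 366 with dim probe sets left out, where fewer were tested, and 523 to 987 with pools left out, highest without both numbered 4. With the pool number as a replicate block Pcdh10 kept its call (1.91, limma adjusted p = 0.0141), 1 probe set passed and 706 had an unadjusted p under 0.05; with the pool as a random block 1 passed, and no other call of a named gene changed under either block. The interaction gave 0 calls in all 21 alternatives, with Pcdh10 from 0.33 to 0.79. Of the other 77 named genes 0 passed under any alternative and 69 kept their sign. The other 8 turned. Omp turned to 0.0563 with quantile normalization. With pools or numbers left out, ranges of those that turned were -0.0457 to 0.0044 for Omp, -0.18 to 0.12 for Pcdh1, -0.22 to 0.25 for Pcdh7, -0.36 to 0.0305 for Pcdh8, -0.26 to 0.0574 for Pcdh9, -0.041 to 0.36 for Pcdh18, -0.0453 to 0.11 for Pcdh19 and -0.31 to 0.97 for Uty. Leaving out 1 pool moved the difference by over 1.5 times, or turned it, in 38 of these 77 genes. With 4 pools per agent the number of arrays limits precision.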
